A study of Mus musculus with 2 samples.

Results

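The *Clca* genes (*Clca1* to *Clca6*) and the bestrophins (*Best1* to *Best3*) were followed in mRNA of the mouse tongue. The 9 genes were picked by gene symbol in the deposited table, and the families had been selected on earlier readings of the same table in which *Clca4* and *Best2* stood out, so the levels of the 9 genes and their differences between tissues are descriptions only. All 9 had a row (6 *Clca* genes and 3 bestrophins) among 18498 rows, of which 18043 carried a gene symbol. The study compared the circumvallate papillae (CvP), the large trench-lined taste papillae at the back of the tongue, with tongue epithelium free of papillae (Epi), in search of genes that act in salt taste. Both tissues came from C57BL/6J mice aged 12 to 30 weeks, with no treatment stated. The paper gives male sex for the mice of its RT-PCR and normal chow for its mice in general, not for these libraries by name. RNA of at least 20 animals was pooled into 1 library per tissue. There was thus no replicate and no test, and each interval given here covers counting error only, not the spread between animals or dissections. In such bulk tissue, fewer cells of a type and less RNA per cell cannot be told apart.

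Calcium-activated chloride currents let epithelial cells release chloride, and with it fluid, when calcium rises inside the cell. CLCA proteins were first taken for the channels themselves. Some, though not all, are now known as secreted proteins that cut themselves and modulate the current of the anoctamin channel ANO1. Bestrophins form chloride channels that calcium opens directly. Several *Clca* genes are known from mucus-secreting and from stratified epithelia. *Best1* is best known from the pigment epithelium of the retina and *Best2* from colon, ciliary body and exocrine glands.

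The 6 *Clca* symbols of the table are older names, and RefSeq (GRCm38.p6) now gives all 6 another symbol for the same gene identifier. *Clca1*, *Clca2* and *Clca4* of the table are now *Clca3a1*, *Clca3a2* and *Clca3b*. The table's *Clca3*, also known as gob-5, is now *Clca1*, its *Clca5* is now *Clca2*, and its *Clca6* is now *Clca4a*. The names of the table are kept here, and a *Clca1* or *Clca2* of newer work is a different gene from the one so named here. The bestrophin symbols have stayed the same.

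The *Clca* rows formed 1 cluster on chromosome 3 of NCBI37/mm9, over 368726 bases and all on the minus strand. In order of position the genes were *Clca1* (144393280 to 144423703), *Clca2* (144459523 to 144482458), *Clca4* (144485587 to 144512266), *Clca6* (144615450 to 144638009), *Clca3* (144667501 to 144695740) and *Clca5* (144733229 to 144762005). *Clca2* and *Clca4* were the closest neighbours, 3128 bases apart. Between *Clca4* and *Clca6* lay 2 more rows, *Gm6289* and *AI747448*, which RefSeq now names *Clca4c-ps*, a transcribed pseudogene, and *Clca4b*. The bestrophins were scattered: *Best1* on chromosome 19 (10059662 to 10076123), *Best2* on chromosome 8 (87531102 to 87538307) and *Best3* on chromosome 10 (116423370 to 116462096).

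Reads were 75 bases long and single-ended, so a stretch of that length shows what 1 read could see of each gene. The start of the coding sequence in exon 1 is shown because there a read could not tell *Clca1*, *Clca2* and *Clca4* apart. It is the same 75 bases on the minus strand at chr3:144423612-144423686 in *Clca1*, chr3:144482359-144482433 in *Clca2* and chr3:144512175-144512249 in *Clca4* (NCBI37/mm9). It begins with the start codon.
Clca1, Clca2 and Clca4, exon 1: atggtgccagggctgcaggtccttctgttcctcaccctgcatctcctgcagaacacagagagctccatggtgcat

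A stretch of exon 12 is shown because it is typical of how far *Clca4* differs from *Clca2*. Over 2096 coding windows of *Clca4* that lie within 1 exon, the median number of mismatches to the nearest *Clca2* window was 13, and this stretch has 13. It lies at chr3:144488959-144489033 in *Clca4*, chr3:144465989-144466063 in *Clca2* and chr3:144400920-144400994 in *Clca1*, on the minus strand, and capitals mark bases that differ from *Clca4*.
Clca4, exon 12: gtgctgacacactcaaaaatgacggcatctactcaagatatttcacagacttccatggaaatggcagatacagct
Clca2, exon 12: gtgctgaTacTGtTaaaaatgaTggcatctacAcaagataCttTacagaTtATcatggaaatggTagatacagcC
Clca1, exon 12: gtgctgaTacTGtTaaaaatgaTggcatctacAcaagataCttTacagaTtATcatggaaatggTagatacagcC
Here *Clca1* and *Clca2* are again identical to each other, so that a read of this stretch separates *Clca4* from its near-copies but not these from one another.

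Levels were given as reads per kilobase of exon model (RPKM), scaled to the mapped reads of the library, which are corrected for gene length. The listed lengths exceed the exons annotated in GENCODE M1 by 3814 bases for *Clca5*, 1568 for *Clca4* and 0 for *Clca3*, so this correction may be uneven. The near-copies may also share reads. The order of levels is therefore approximate, and the intervals of the levels cover neither error. In CvP the order was *Clca5* (46.59 RPKM), *Clca4* (26.24), *Best2* (12.44), *Clca2* (1.20), *Clca1* (0.51), *Clca6* (0.25), *Best3* (0.19), *Clca3* (0.16) and *Best1* (0.12). In Epi it was *Clca5* (30.96), *Best2* (2.41), *Clca4* (2.02), *Clca6* (0.13), *Clca1* (0.03), *Best3* (0.03) and *Clca2* (0.02), with *Clca3* and *Best1* listed at 0. The 95% Poisson intervals of the levels did not overlap between neighbours among the first 5 genes in CvP, while from *Clca1* (0.373 to 0.689) and *Clca6* (0.153 to 0.377) downwards each gene overlapped the next. In Epi *Clca5* stood alone, and the intervals of *Best2* (2.04 to 2.85) and *Clca4* (1.74 to 2.32) overlapped, so these 2 genes have no order in Epi. Of all rows, 94.2% lay below *Clca5* in CvP and 91.5% in Epi. For *Clca4* these shares were 88.3% and 50.5%, and 52.9% of rows lay below *Best2* in Epi.

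**Figure D1:**
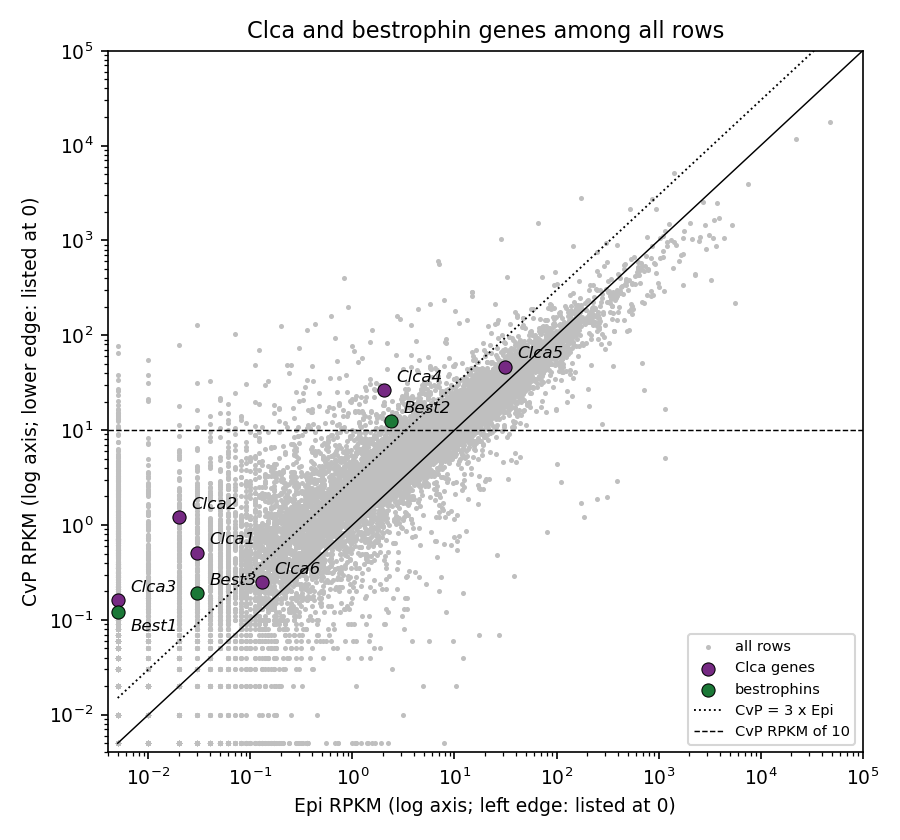
RPKM of all 18498 rows in CvP (vertical, log axis) against Epi (horizontal, log axis), 1 point a row, with the *Clca* genes in purple and the bestrophins in green. All 9 lie above the line of equal levels, and only *Clca4* and *Best2* are both above the dashed line at a CvP RPKM of 10 and above the dotted line at 3 times the Epi level.

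All 9 genes were listed higher in CvP. The share over all rows was not counted for this. Of the 12549 rows that reached an RPKM of 1 in either tissue 78.1% were, but only 4 of the 9 genes reached that level. The study's criteria asked for more than 10 RPKM in CvP together with a ratio to Epi of more than 3. By these, 2 of 9 were called (*Clca4* and *Best2*), where 2.35% of all rows were. These values chose the families, so nothing is read from that count. The paper reports a larger set of candidate genes by the same limits than was called among the rows used here. The cause of that difference was not tested, so the background share is that of the rows used here only. By the ratio alone 7 of 9 were called, all but *Clca5* and *Clca6*, against 25.5% of all rows, and 5 of these 7 had a CvP RPKM of 1.20 or less. *Clca3* and *Best1*, listed at 0 in Epi, count among the 7, as rows at 0 in Epi do in the background. The nearest gene inside the level criterion was *Best2*, at 12.44 RPKM, and the nearest outside it was *Clca2*, at 1.20 RPKM; *Clca5* met the level and missed the ratio, at 1.50. By the opposite criteria, higher in Epi, 0 of 9 were called, against 0.600% of all rows.

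The 95% counting interval of the ratio lay above 1 for 8 of 9, all but *Clca6*, where it did for 57.0% of all rows, and below 1 for 0 of 9, where it did for 12.1%. Among the 10363 rows with an RPKM of at least 1 in both tissues the median CvP/Epi ratio was 1.31, and 75.5% were higher in CvP. This varied with level: at a geometric mean of 3 to 10 RPKM, where *Clca4* and *Best2* lie, the median ratio was 1.49 and 86.7% of rows were higher in CvP, and at 30 to 100 RPKM, where *Clca5* lies, these were 1.00 and 50.4%. CvP had 28375281 mapped reads and Epi 27908511, so depth was alike, but the 895 rows at 0 in CvP stood against 2207 in Epi.

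*Clca4* was the *Clca* gene with the largest difference in level, 24.22 RPKM. It was at 26.24 RPKM in CvP and 2.02 in Epi, from 2502 and 189 reads, a ratio of 13.0 (95% counting interval 11.2 to 15.2) and a log2 ratio of 3.70. Divided by the median ratio of expressed rows, it was 9.89. Taste cell markers were also higher in CvP: all 12 of 12 were above 3-fold. Among all rows that reached an RPKM of 1 in either tissue, 15.9% were. The summed level of the markers was 525.1 RPKM in CvP and 6.2 in Epi, with *Gnat3*, the G protein subunit of taste receptors, at 127.11 and 0.03 RPKM. Of these markers 4 were listed at 0 in Epi (*Pkd2l1*, *Kcnq1*, *Snap25* and *Ncam1*) and the other 8 were not, and *Entpd2*, the ectonucleotidase of type I taste cells, was at 54.83 and 4.53 RPKM, a ratio of 12.1. The part of taste cells in the result was not tested.

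*Clca2* and *Clca1*, the near-copies beside *Clca4*, were low. *Clca2* was at 1.20 RPKM in CvP (124 reads) and 0.02 in Epi (2 reads), a ratio of 60.0 with an interval of 16.5 to 509. *Clca1*, known from lymphatic endothelium, was at 0.51 RPKM in CvP (44 reads) and 0.03 in Epi (3 reads), a ratio of 17.0 with an interval of 4.62 to 72.6. The interval of *Clca2* lies above that of *Clca4* (11.2 to 15.2) and that of *Clca1* overlaps it. Both ratios rest on 3 or fewer Epi reads, and the intervals do not allow for reads that the near-copies may share. Of 8 endothelial markers 6 had a row and 2 reached an RPKM of 1, *Prox1*, a gene also known from taste cells (5.91 in CvP, 0.02 in Epi), and *Tek* (2.49 and 0.07), and the summed level was 8.8 RPKM in CvP and 0.3 in Epi. The defining marker *Pecam1* was at 0.28 RPKM in CvP and 0.12 in Epi, and *Cdh5* at 0.02 and 0.06. The part of endothelium was not tested.

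*Clca5*, which newer work knows as *Clca2* of stratified squamous epithelium, was the most abundant member in both tissues. It was at 46.59 RPKM in CvP (5267 reads) and 30.96 in Epi (3442 reads), a ratio of 1.50 (1.44 to 1.57) that became 1.15 on division by the median ratio of 1.31. Among rows of its own level, with a geometric mean of 30 to 100 RPKM, the median ratio was 1.00. It made up 93.4% of the summed *Clca* level in Epi and 62.2% in CvP, while *Clca4* made up 6.09% and 35.0%. The summed *Clca* level was 74.95 RPKM in CvP and 33.16 in Epi, so most of the difference between the sums was that of *Clca4* and *Clca5*. Most markers of keratinized epithelium were higher in Epi: 11 of 12 had a row, 8 were higher in Epi and 6 of them more than 3-fold. Of all rows that reached an RPKM of 1 in either tissue, 1.96% were more than 3-fold higher in Epi. The summed level of the markers was 34861.1 RPKM in CvP and 92030.2 in Epi. *Krt13*, the keratin of the mucosal surface, was at 17548.78 and 47814.69 RPKM. The 3 higher in CvP were the keratins *Krt5* (ratio 1.19) and *Krt1* (1.21) and the envelope protein gene *Ivl* (1.15). None of the 11 was listed at 0. The part of these cells in the *Clca5* values was not tested.

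*Clca3* and *Clca6* were near the floor of the data. *Clca3* (gob-5), known as a goblet cell gene, was at 0.16 RPKM in CvP (13 reads) and listed at 0 in Epi, where 3 reads would be 0.0366 RPKM. *Clca6*, known from intestine, was at 0.25 RPKM in CvP (21 reads) and 0.13 in Epi (11 reads), a ratio of 1.92 with an interval of 0.865 to 4.31, so a difference was not detectable at this depth. It shares 43.7% of its read-length windows with *AI747448*, so reads of these genes may have been divided between them. The 2 other rows of the cluster held almost nothing: *Gm6289* was at 0.05 RPKM in CvP, 1 read, and listed at 0 in Epi, and *AI747448* was listed at 0 in both. Mucus genes were mixed. Of 14 on the list 13 had a row and 8 reached an RPKM of 1. Of these 8, 3 were above 3-fold in CvP and 2 more than 3-fold higher in Epi. Among all rows at that level these shares were 15.9% and 1.96%. The summed levels of the list were 55.5 RPKM in CvP and 33.5 in Epi. *Fcgbp*, a protein of goblet cell mucus, was at 22.99 and 3.06 RPKM and *Agr2*, a chaperone of mucin folding, at 12.94 and 2.08, while the trefoil factor *Tff2* was at 0.55 and 10.60. The goblet cell mucin *Muc2* was at 0.03 and 0.02 RPKM, and *Tff1* was listed at 0 in both. The part of mucous cells was not tested.

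**Figure D2:**
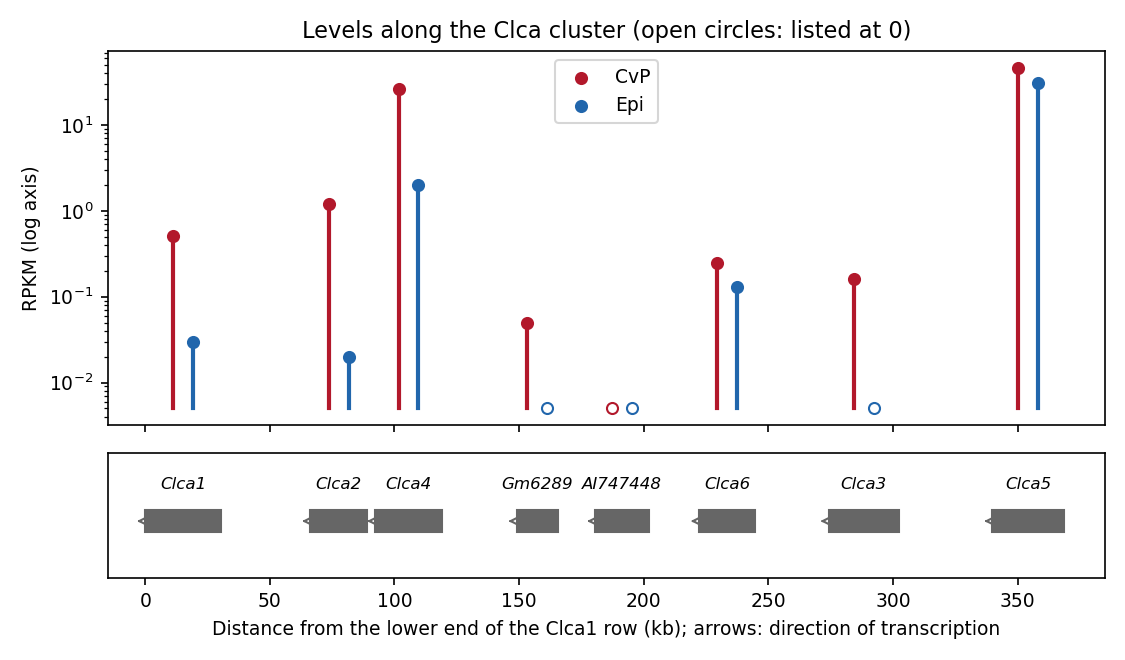
RPKM (log axis) of the 8 rows of the *Clca* cluster in CvP (red) and Epi (blue) above their positions in kb, where boxes are the spans of the rows and arrows give the direction of transcription. *Clca4* stands at 26.24 and 2.02 RPKM beside *Clca2* and *Clca1* at 1.20 RPKM or less, *Clca5* is high in both tissues at the other end, and open circles mark rows listed at 0.

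Among the bestrophins *Best2* carried nearly the whole signal, 97.6% of the summed level in CvP and 98.8% in Epi. It was at 12.44 RPKM in CvP (737 reads) and 2.41 in Epi (141 reads), a ratio of 5.16 (4.29 to 6.20) and a log2 ratio of 2.37, or 3.93 on division by the median ratio. *Best2* is known from glands, and serous gland markers were mostly higher in Epi: 12 of 15 had a row and 8 reached an RPKM of 1. Of these 8, 2 were above 3-fold in CvP and 6 more than 3-fold higher in Epi. Among all rows at that level these shares were 15.9% and 1.96%. The summed levels of the markers were 21.9 RPKM in CvP and 425.3 in Epi. The lipase *Lipf* was at 1.96 and 313.42 RPKM and the salivary amylase *Amy1* at 0.85 and 80.48, while *Pigr*, the receptor that carries IgA across epithelia, was at 12.01 and 0.54. *Dcpp1*, *Smgc* and *Car6* were listed at 0 in CvP. The water channel gene *Aqp5* of the same list was at 6.09 RPKM in CvP and 0.69 in Epi. *Best2* differed in the direction opposite to *Lipf* and *Amy1* and in the same direction as *Pigr* and *Aqp5*. The part of gland tissue in its value was not tested.

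*Best3*, known from muscle, and *Best1* were barely detected. *Best3* was at 0.19 RPKM in CvP (15 reads) and 0.03 in Epi (2 reads), a ratio of 6.33 with an interval of 1.72 to 66.5. Muscle markers were mostly lower in CvP: all 8 had a row and 6 reached an RPKM of 1, 0 above 3-fold in CvP and 5 more than 3-fold higher in Epi. Among all rows at that level these shares were 15.9% and 1.96%. The summed levels of the markers were 6.2 and 44.5 RPKM, with the actin *Acta1* at 0.86 and 12.88. *Best1* was at 0.12 RPKM in CvP (7 reads) and listed at 0 in Epi, where 3 reads would be 0.0517 RPKM. Of 6 markers of retinal pigment epithelium, a cell type the tongue lacks, all had a row and 1 reached an RPKM of 1, with summed levels of 1.7 RPKM in CvP and 1.2 in Epi. *Rpe65*, which defines that epithelium, was at 0.07 RPKM in CvP, 3 reads, and listed at 0 in Epi. The part of muscle in the *Best3* value was not tested.

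**Figure D3:**
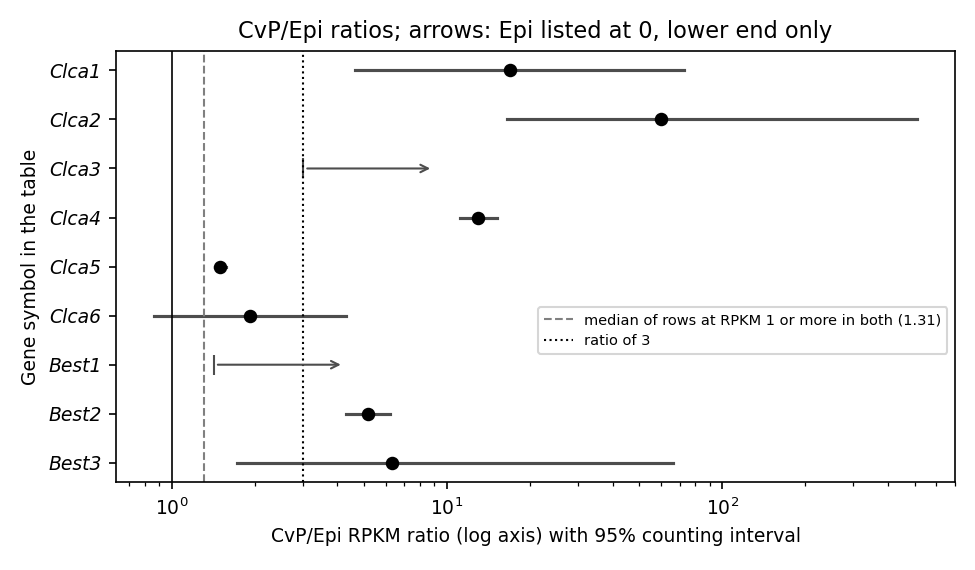
CvP/Epi RPKM ratio of the 9 genes (log axis), points with 95% counting intervals, and arrows from the lower end of the interval for *Clca3* and *Best1*, which are listed at 0 in Epi. The solid line is a ratio of 1, the dashed line the median ratio of 1.31 and the dotted line 3; the intervals of *Clca4* (11.2 to 15.2) and *Best2* (4.29 to 6.20) are narrow and lie above 3, that of *Clca5* lies between 1.31 and 3, and that of *Clca6* spans 1.

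The copies of the cluster share sequence, which bears on the low members. At up to 2 mismatches, 61.2% of the 75-base windows of *Clca1* and 59.8% of those of *Clca2* were found elsewhere in the genome, against 15.4% of *Clca4* (506 of 3287 windows, all of them in the cluster) and 55.6% of *Clca6*. For *Clca3*, *Clca5* and the bestrophins the share was 0. The *Clca1* and *Clca2* proteins, translated from GENCODE M1 coding sequences, were 95.3% identical and each was near 80% identical to *Clca4* (80.5% and 80.7%). *Clca5* and *Clca4* were 47.7% identical, and the bestrophins were 50.9% to 57.4% identical to one another. If the 2502 CvP reads of *Clca4* were spread evenly, 36.5 would fall on windows identical in *Clca2* and 301 on windows within 2 mismatches of it, beside the 124 reads that *Clca2* itself was given. How the counting divided such reads is not given in the sources used here, so the levels of *Clca1*, *Clca2* and *Clca6*, and the 0 of *AI747448*, are uncertain. With the reads of *Clca1*, *Clca2* and *Clca4* summed, 2670 in CvP and 194 in Epi, the ratio was 13.5 (11.7 to 15.7), beside 13.0 for *Clca4* alone. The reads of *Clca1* and *Clca2* without *Clca4*, 168 and 5, gave 33.0 (13.9 to 103), an interval that overlaps that of *Clca4* (11.2 to 15.2), while the interval of *Clca2* alone (16.5 to 509) does not.

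**Figure D4:**
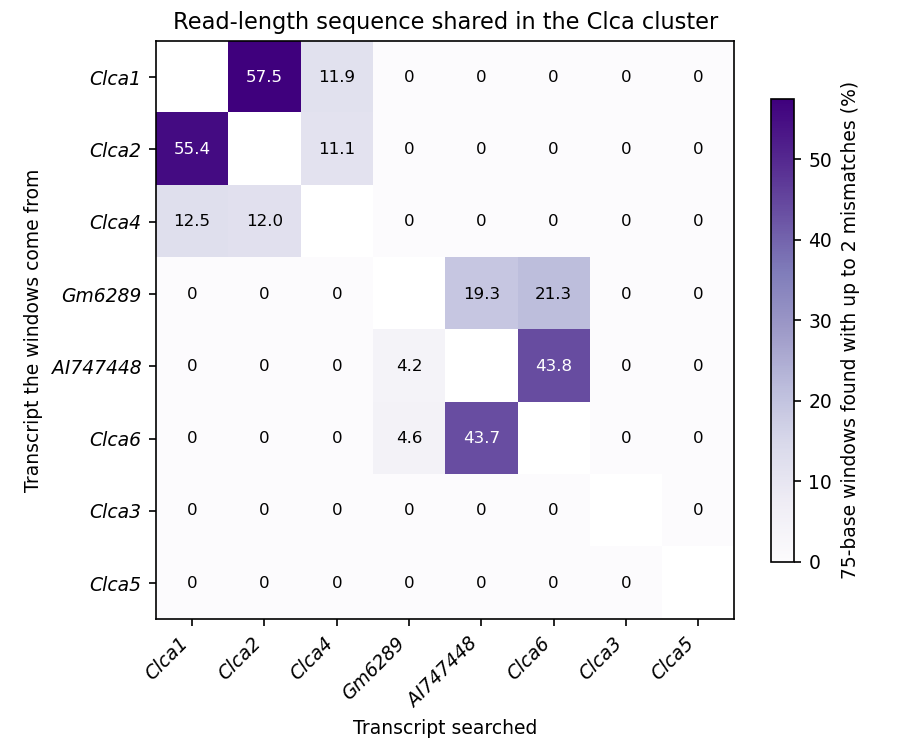
Share of the 75-base windows of each transcript (rows) found in each other transcript of the *Clca* cluster (columns) with up to 2 mismatches, in percent. *Clca1* and *Clca2* share 57.5% and 55.4% of their windows, *Clca4* shares 12.5% and 12.0% with them, *Clca6* shares 43.7% with *AI747448*, and *Clca3* and *Clca5* share none.

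Row length and strand also bear on the values. The listed length exceeds the exons annotated in GENCODE M1 by 1568 bases for *Clca4*, 3814 for *Clca5*, 1034 for *Clca2* and 918 for *Best2*, and by 0 for *Clca3* and *Best3*. Reads were therefore estimated with the longest annotated transcript wherever the row was longer than it, and are approximate. For such rows the read numbers are lower than the listed length would give. With the listed length, the interval of the ratio lay above 1 for the same 8 members. *Clca6* shares 334 exon bases with the lincRNA *Gm16233* on the opposite strand, and since no strand is stated for the counting, reads of the pair cannot be told apart there.

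The starts of *Clca4* and *Clca2* share sequence too, and their promoters are shown because these neighbours had such unequal levels, 26.24 and 1.20 RPKM in CvP. Promoter sequences of RefSeq, 250 bases before to 50 after the start, were matched for 5 of 9 members (*Clca1*, *Clca2*, *Clca4*, *Clca5* and *Best1*), on GRCm38.p6. Searched on both strands, the octamer ATGCAAAT, a motif bound by POU factors, was in 2 of 5 (*Clca4* and *Clca2*) and in 1.74% of 32851 promoters, the TATA box TATAAA was in 0 of 5 and in 13.6%, and the AP-1 motif (TGACTCA or its reverse complement TGAGTCA) was in 0 of 5 and in 5.20%. The octamer is in capitals in 80 bases upstream of the start, from −135 to −56 of *Clca4* at chr3:144849358-144849437 and from −127 to −48 of *Clca2* at chr3:144819542-144819621 (GRCm38.p6, minus strand).
Clca4 promoter: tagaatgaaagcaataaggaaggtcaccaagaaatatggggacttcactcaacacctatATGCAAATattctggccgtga
Clca2 promoter: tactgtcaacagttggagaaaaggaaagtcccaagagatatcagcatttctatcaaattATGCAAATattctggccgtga
The last 22 bases of both, octamer included, are identical. On NCBI37/mm9 the octamer begins 93 bases before the start codon in both genes and was not found in the 200 bases before the start codon of the 6 other rows of the cluster. There *Clca4* and *Clca2* aligned over 132 bases at 93.2% identity and *Clca4* and *Clca1* over 70 bases at 97.1%, all within 72 bases of the start codon for the latter pair. A shared motif and unequal levels are both descriptions, and the letters say nothing of which factor is bound.

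The anoctamin family includes *Ano1* and *Ano2*, which form calcium-activated chloride channels, and other members that move lipids or conduct cations. Of 10, all had a row and 7 reached an RPKM of 1 in either tissue, of which 2 were above 3-fold in CvP and 0 more than 3-fold higher in Epi, where 15.9% and 1.96% of such rows were. The 2 were *Ano1*, the calcium-activated chloride channel of secretory epithelia, at 13.27 RPKM in CvP and 3.27 in Epi (ratio 4.06, 3.64 to 4.52), and *Ano7*, named after its values were seen, at 8.82 and 0.32. The 2 that were higher in Epi were *Ano2*, at 1.29 RPKM in CvP and 3.31 in Epi (ratio 0.390, 0.319 to 0.475), and *Ano8*, at 6.28 and 10.87 (ratio 0.578, 0.524 to 0.636). *Ano9* was the most abundant, at 20.41 and 16.45 RPKM, and *Ano10* followed at 18.08 and 7.21. The median log2 ratio of the 7, at a pseudocount of 0.1, was 1.05, beside 0.50 over all rows that passed. With no filter on level it was 0.47, beside 0.49 over all rows.

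A further list held genes known to act in calcium signalling and chloride secretion of epithelia. Of 22, all had a row and 19 reached an RPKM of 1, of which 18 were higher in CvP, 8 of them above 3-fold, and 0 were more than 3-fold higher in Epi, with a median log2 ratio of 1.18. Of all 12549 rows that reached an RPKM of 1 in either tissue, 78.1% were higher in CvP. Above 3-fold in CvP were 15.9% of them, and 1.96% were more than 3-fold higher in Epi. Genes for the release and entry of calcium differed among themselves. The ratio was 6.53 for the calcium release channel *Itpr1*, 1.37 for *Itpr3* and 1.08 for *Itpr2*. For the entry channels it was 3.04 (*Orai3*), 1.99 (*Orai2*) and 1.00 (*Orai1*). For the calcium store sensors it was 1.49 (*Stim2*) and 0.926 (*Stim1*). *Calm2*, which encodes the calcium sensor calmodulin, was at 95.86 RPKM in CvP and 33.90 in Epi. The list shares *Kcnq1* with the taste cell markers and *Aqp5* with the gland markers.

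The rows whose levels were nearest those of the 2 called genes were found by distance on the log2(RPKM + 0.1) plane of the 2 libraries, over 18042 other rows with a symbol. Nearest *Clca4* were *Dap* (27.83 RPKM in CvP, 1.88 in Epi, distance 0.130), *Kit* (26.34 and 1.81, distance 0.151) and *Pdpn* (29.09 and 2.09, distance 0.155). Nearest *Best2* were *Manba* (12.27 and 2.32, distance 0.056), *Dynlt1b* (12.64 and 2.55, distance 0.082) and *Actn1* (12.77 and 2.55, distance 0.087). Such nearness over 2 libraries describes the pair of levels and nothing more.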

How the data were processed

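The authors mapped 75-base single-end reads with Bowtie 0.12.7 to NCBI37/mm9 (mm9) and used ERANGE for RPKM values per exon model, which is the unit of the 2 deposited columns used here. How reads with several matches were counted is not given in the sources used here. A column with the authors' own CvP/Epi comparison was not used, and no per-sample column was left unmapped (0).

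The members and gene lists were chosen with earlier results of these data known. Reads were estimated from RPKM, length and depth, the latter from the step between the lowest values in 163 rows of 0.1 kb (98.8% of CvP and 98.4% of Epi values of such short rows came within 0.2 reads of a whole number, in rows of up to 0.5 kb under 20 reads). Ratios have 95% exact Clopper-Pearson intervals and levels exact Poisson intervals. With 1 to 3 reads the ratio is given with its whole interval. Ratios used no pseudocount, and list medians a pseudocount of 0.1 over genes that reached 1 RPKM in CvP or Epi. Tested on simulated data of 18498 rows, depth was recovered to within 0.0567%. In separate draws with known read numbers, the true ratio lay in 95.7% of 1000 intervals. Those draws had expected Epi counts of at least 3 reads and no shared reads. They say little of members with 3 or fewer Epi reads or with near-copies.

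The genes named are the 9 members, the other rows of the cluster, the 3 rows nearest to *Clca4* and to *Best2*, and up to 3 genes with the highest level of each of 9 lists (anoctamins, calcium signal and chloride secretion partners, mucus-secreting cells, taste cells, keratinized epithelium, serous salivary gland, endothelium, muscle and retinal pigment epithelium). Some genes that this rule names are not reported here. *Ano2*, *Ano7*, *Ano8*, *Entpd2*, *Itpr1*, *Itpr2*, *Itpr3*, *Orai1*, *Orai2*, *Orai3*, *Stim1*, *Stim2*, *Krt1*, *Krt5*, *Ivl*, *Cdh5*, *Muc2*, *Tff1*, *Dcpp1*, *Smgc*, *Car6*, *Aqp5*, *Pkd2l1*, *Kcnq1*, *Snap25*, *Ncam1*, *Odf2l* and *Sh3glb1* were named after their values were seen. Windows were searched in the NCBI37/mm9 genome, and coordinates of promoters are on GRCm38.p6. Alternatives were other minimums, pseudocounts, lengths and scalings. The tools were Biopython 1.88, numba 0.67.0, scipy 1.17.1, pandas 2.3.3 and numpy 2.4.6 under Python 3.11.15, and matplotlib 3.10.9 for figures.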

Additional observations from a re-analysis of the deposited data

How the results depend on the processing

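No paired analysis was possible because CvP and Epi are 1 library each. By the ratio alone, with no minimum level, 7 members were called in place of 2, since 5 members with a ratio above 3 have a low level. A minimum CvP RPKM of 1 called 3, adding *Clca2*, and every other minimum, pseudocount and scaling tried called 2. Each library rescaled to a common sum brought the members whose interval lay above 1 from 8 to 9, adding *Clca6*. A pseudocount cannot reverse the direction of a ratio, and the common sum raised every ratio. Only division by the median ratio could have reversed one. After that division the lowest ratio was 1.15, that of *Clca5*, among the members with Epi reads. The *Clca4* ratio ranged from 9.02 (pseudocount of 1) to 15.7 (common sum), that of *Best2* from 3.93 (divided by the median ratio) to 6.23 (common sum), and that of *Clca5* from 1.15 to 1.82. The *Clca2* ratio of 60.0 fell to 10.8 with a pseudocount of 0.1 and to 2.16 with one of 1, because its Epi level is 0.02 RPKM. With no filter on level the median log2 ratio of the anoctamins moved from 1.05 to 0.47 and that of the mucus list from 0.64 to 0.12, as more genes near 0 entered. That of endothelium moved from 4.79 to 0.51 and that of the serous gland list from -5.65 to -2.87. The retinal pigment epithelium list, with 1 gene past the filter, changed direction, from 0.68 to -0.07. The sum of *Clca1*, *Clca2* and *Clca4* reads, chosen after seeing the data, gave 13.5. Depth limits the 5 members with 3 or fewer Epi reads, for which no ratio is precise.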

Other observations

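The genes at either side of the *Clca* cluster were expressed in both tissues. *Odf2l*, beyond *Clca5*, was at 5.20 RPKM in CvP and 2.84 in Epi, a ratio of 1.83 (95% counting interval 1.54 to 2.18). *Sh3glb1*, beyond *Clca1*, was at 30.25 and 27.69 RPKM, a ratio of 1.09 (1.04 to 1.15). Beside the ratio of 13.0 of *Clca4*, these are the values at the 2 edges of the region.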
